A study of Homo sapiens with 2 samples.

Results

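The CLK family comprises 4 genes, CLK1, CLK2, CLK3 and CLK4, which were picked by the gene symbol of their probes because earlier results of these data had placed CLK1 and CLK3 among the genes farthest from 0. Each of the 4 genes had 1 probe among the 24267 probes of the array, and all 4 probes had a value on both arrays. The samples were cultures of 293T, an established human embryonic kidney cell line, exposed to 10 µM Y27632 for 3 h or for 6 h, and untreated 293T cells given a time of 0 h. Y27632 inhibits the kinases ROCK1 and ROCK2, which drive actomyosin contraction. Each time had 1 dual-colour array, with the Y27632 cells in Cy3 and the untreated cells in Cy5, no dye swap and no replicate. The titles of both arrays also carry the word control, and the labels do not say what it refers to. The question of the design is which transcripts differed between Y27632 and untreated cells at each time.

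CLK kinases are nuclear protein kinases that phosphorylate serine, threonine and tyrosine. Their best known substrates are the SR proteins, splicing factors with domains rich in arginine and serine, whose phosphorylation by CLK releases them from nuclear speckles and by SRPK kinases brings them into the nucleus. CLK1 and CLK4 are the most closely related pair, and the CLK pre-mRNAs are themselves alternatively spliced, so that part of the transcripts encode no active kinase.

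Every value below is the deposited log ratio of the 2 channels of an array, read as log2. Neither the numerator nor the log base is given in the sources used here. A positive value therefore means higher in Y27632 cells if the ratio is Y27632 over untreated, and lower in Y27632 cells if it is the other way round, and nothing is called a rise or a fall. With 1 array per time there is no SD between samples, no test and no p-value. The only error available is the spread between different probes of the same gene. Pooled over 572 genes with at least 2 probes, this within-gene SD was 0.31 on the 3 h array and 0.33 on the 6 h array. The SD over all named genes was 0.36 on each array, so probes of 1 gene spread nearly as widely as genes did. The within-gene SD leaves out the spread between cultures. The inhibitor cannot be told apart from time in culture, handling or vehicle. Nor can it be told apart from the dye, since Y27632 cells were in Cy3 and untreated cells in Cy5 on both arrays. It is not stated whether a single untreated RNA served both arrays, so the 6 h value of a gene is no replicate of its 3 h value. Ratios carry no expression level, and the 7 marker genes fixed for 293T cells, which all had a value on both arrays, could not be checked for abundance.

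The sequences upstream of the CLK genes are shown because 3 of the 4 genes lay past 1 log unit on both arrays and CLK4 did not, so that the sequences can be set beside the values. They were taken from the RefSeq promoter table on GRCh38.p14, which holds 1 window for CLK2 and CLK4 and 2 for CLK1 and CLK3, and each is given for the 250 bases before an annotated start, 5′ to 3′ on the gene's strand. Capitals mark the core of the cAMP response element (TGACG, or CGTCA read on the opposite strand) and the E-box (CACGTG). For CLK1 the window of the more upstream start is printed, at chr2:200864659-200864908 on the minus strand, and for CLK3 that of the more downstream start, at chr15:74615586-74615835 on the plus strand. Of the 2 windows of a gene, one that held the core was printed. The core in the printed CLK3 window therefore follows from this choice, since its other window had none. CLK2 lies at chr1:155273505-155273754 and CLK4 at chr5:178627051-178627300, both on the minus strand.
CLK1: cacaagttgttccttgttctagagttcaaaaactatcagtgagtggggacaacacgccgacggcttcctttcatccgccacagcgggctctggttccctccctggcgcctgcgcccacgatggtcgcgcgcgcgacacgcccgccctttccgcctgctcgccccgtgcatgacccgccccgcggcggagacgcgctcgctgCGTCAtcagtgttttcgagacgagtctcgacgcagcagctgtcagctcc
CLK2: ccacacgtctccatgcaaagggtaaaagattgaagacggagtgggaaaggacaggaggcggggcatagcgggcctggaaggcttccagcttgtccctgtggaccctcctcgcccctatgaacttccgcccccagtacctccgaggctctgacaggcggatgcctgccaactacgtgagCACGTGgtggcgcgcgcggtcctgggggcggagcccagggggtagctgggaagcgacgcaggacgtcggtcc
CLK3: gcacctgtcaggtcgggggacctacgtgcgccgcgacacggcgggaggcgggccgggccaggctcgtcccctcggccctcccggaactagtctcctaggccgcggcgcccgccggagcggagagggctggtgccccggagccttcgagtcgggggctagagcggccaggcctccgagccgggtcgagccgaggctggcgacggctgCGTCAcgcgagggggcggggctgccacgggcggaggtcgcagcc
CLK4: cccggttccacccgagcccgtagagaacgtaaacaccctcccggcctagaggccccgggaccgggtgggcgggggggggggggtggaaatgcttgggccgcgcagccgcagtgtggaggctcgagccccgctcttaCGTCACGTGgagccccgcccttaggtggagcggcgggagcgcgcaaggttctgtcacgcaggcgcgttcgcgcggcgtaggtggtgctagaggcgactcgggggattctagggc

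CLK1 had a core of the cAMP response element beginning 49 bases before its start, CLK3 had one 44 bases and CLK4 one 114 bases before. All 3 read CGTCA on the gene's strand. The CLK2 window had no such match. The core thus stood upstream of CLK4, the lowest of the family, and not of CLK2, whose probe may measure another gene. The motifs were chosen after the sequences were seen, and whether the core bears on the log ratios was not tested. In the other CLK1 window, whose start lies farther downstream, the same site stands 146 bases before the start, and the other CLK3 window had none. Of all 35116 upstream windows of this length, 21.2% held TGACG on either strand. The E-box stood 72 bases before the CLK2 start and 111 bases before the CLK4 start, where it shares bases with the core, and 6.34% of all windows held one. The GC box (GGGCGG, both strands) occurred at 2 places in each of the 4 printed windows, and 42.6% of all windows held at least 1. The CLK3 window that is not printed had no GC box. The full cAMP response element (TGACGTCA) and the TATA box (TATAAA), present in 1.65% and 10.7% of windows, matched in none of the 6 CLK windows, and neither did GCCATNTT (3.86%) or GAANNTTC (5.78%), all searched on both strands. CCAAT (32.0% of windows) matched only in the CLK3 window that is not printed, at 2 places, and CCGGAA (14.5%) once, in the printed CLK3 window. The printed windows were rich in G and C, with 64.4% for CLK1, 65.2% for CLK2, 78.0% for CLK3 and 71.2% for CLK4, against a median of 58.0% over all windows, while the other CLK3 window had 55.6%. These matches are letters in a window, and whether any factor binds there was not measured.

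**Figure D1:**
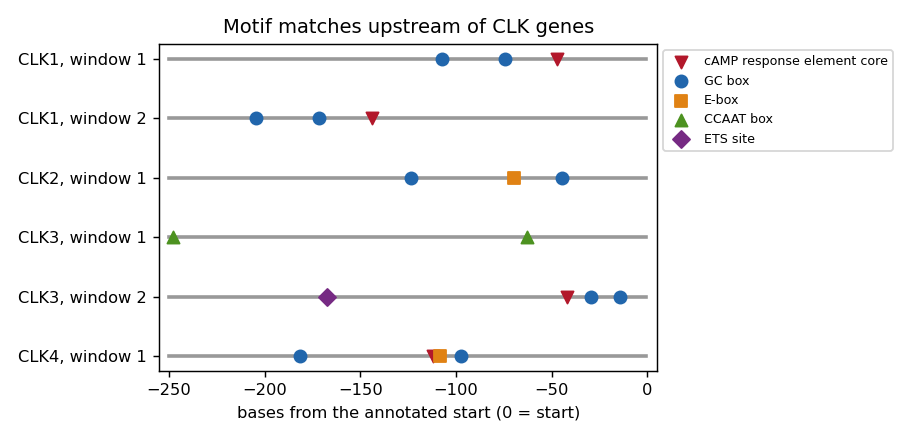
Positions of motif matches in the 6 upstream windows of the CLK genes. The horizontal axis is the distance in bases from the annotated start and each row is 1 window. Cores of the cAMP response element lie 44 to 146 bases before the start in 4 of 6 windows, of which the 2 of CLK1 hold the same site, and GC boxes occur in all but the first CLK3 window.

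CLK1, which phosphorylates SR proteins and is the founding member of the family, had a log ratio of 1.82 on the 3 h array and 1.77 on the 6 h array. These are sizes of 3.53-fold and 3.41-fold in base 2. CLK1 ranked 3 from the top of 10810 named genes at 3 h and 2 of 10716 at 6 h. Among all probes, named or not, 4 lay higher at 3 h and 11 at 6 h. The value was 5.88 times the within-gene SD at 3 h and 5.33 times at 6 h. These multiples only describe its size, since the same values led to the choice of the family.

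CLK3, a kinase of the same substrate class, had a log ratio of 1.58 on the 3 h array and 1.54 on the 6 h array, sizes of 2.99-fold and 2.91-fold. It ranked 7 from the top on each array, tied with 1 other gene at 6 h. CLK3 was 0.24 below CLK1 at 3 h and 0.23 below at 6 h. The error of a difference between 2 single probes is 0.44 at 3 h and 0.47 at 6 h from the within-gene SD, so CLK1 and CLK3 did not differ beyond it.

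CLK2, which besides SR proteins acts on hepatic glucose regulation in mice, had a log ratio of 1.03 on the 3 h array and 1.05 on the 6 h array, sizes of 2.04-fold and 2.07-fold. It ranked 56 and 59 from the top, just inside the size of 1 log unit that was used to count genes. CLK2 was 0.79 below CLK1 at 3 h and 0.72 below at 6 h, which is 1.81 and 1.53 times the error of such a difference. CLK2 minus CLK3 was −0.55 and −0.49, which is −1.26 and −1.04 in units of that error. The name of this probe has a limit of its own. CLK2 is also an older synonym of TELO2, a regulator of the PI3K-related kinases, in the RefSeq table, and no other probe of the annotation carried a name of TELO2. Since the annotation gives no accession for the probe, the file does not settle which of the 2 genes it measures. CLK1 is likewise an older synonym of COQ7 and COLEC11. These had probes of their own, with 0.26 and 0.29 for COQ7 and −0.15 and −0.14 for COLEC11 at 3 h and 6 h. A gene can have more than 1 probe, so their probes do not by themselves settle which gene the CLK1 probe measures.

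CLK4, the closest relative of CLK1, had the lowest values of the family, with a log ratio of 0.68 on the 3 h array and 0.29 on the 6 h array, sizes of 1.60-fold and 1.22-fold. It lay below 1 log unit on each array. At 3 h, 3.07% of named genes were as high or higher, and at 6 h 21.2% were. CLK4 was 2.20 times the within-gene SD from 0 at 3 h and 0.87 times at 6 h, and a range of 2 SD on either side ran from 0.061 to 1.30 at 3 h and from −0.37 to 0.95 at 6 h. At 6 h the value therefore could not be told from 0 by the only error at hand. CLK4 was 1.14 below CLK1 at 3 h and 1.48 below at 6 h, 2.60 and 3.15 times the error of a difference of 2 probes. The distance to CLK3 was 0.90 and 1.25, which is 2.06 and 2.66 times that error. These gaps are a description too, because CLK1 and CLK3 were chosen for their high values on these arrays. From CLK2, its neighbour in the order, CLK4 differed by 0.35 and 0.76, within 1.62 times the error. Whether the CLK1 and CLK4 probes each take up transcripts of the other gene, or which splice forms they bind, was not tested, since probe sequences were not used here.

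**Figure D2:**
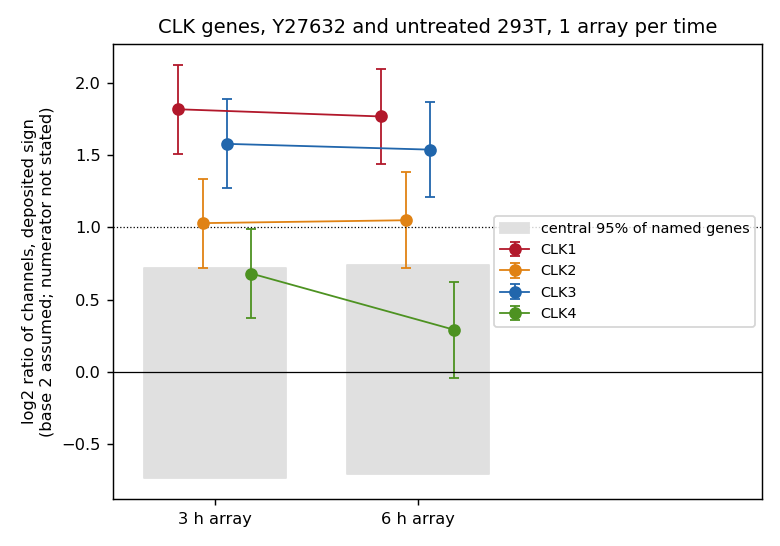
Log2 ratio of the channels, in the deposited sign, of the 4 CLK genes on the 3 h and 6 h arrays. Points are the single probe of each gene, bars are 1 within-gene SD between probes (0.31 and 0.33) and not an error between samples, and grey boxes span the central 95% of named genes. CLK1, CLK2 and CLK3 lie above the grey boxes at both times, and CLK4 lies inside them.

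The order of the family was the same on each array, with CLK1 highest, then CLK3, CLK2 and CLK4. No neighbours in this order differed by more than 1.62 times the error of a difference. The family's median was 1.31 at 3 h and 1.30 at 6 h, against a median of 0.02 over all named genes on each array. At least 1 log unit on the positive side was reached by 3 of the 4 genes at 3 h, where 0.657% of named genes did so, and by the same 3 at 6 h, where 0.7% did. On both arrays together 16 of 10469 genes, or 0.153%, lay at 1 or more, and CLK1, CLK2 and CLK3 were 3 of them. A range of 2 within-gene SD on either side took in 1 log unit for CLK2 and CLK3 on each array. It did so for CLK4 at 3 h too. The lower end was 0.41 for CLK2 and 0.96 for CLK3 at 3 h, and 0.39 and 0.88 at 6 h. Because the family was chosen from these arrays, its counts describe the choice and are no evidence for it.

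Between the times, CLK1 differed by −0.05, CLK2 by 0.02 and CLK3 by −0.04 (6 h minus 3 h), against an SD of 0.29 for this difference over all genes with both values. CLK4 differed by −0.39, a size of 1.31-fold. A difference as low as that of CLK4 or lower was found for 636 genes, or 6.08%, and the within-gene SD of the difference was 0.30. No CLK gene reached a difference of 1 log unit, which 1.2% of genes did in either direction. A dye bias common to both arrays cancels in this difference but remains in the values of each array, also where these are nearly equal. An effect of time and an effect of the single array behind each time cannot be told apart.

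**Figure D3:**
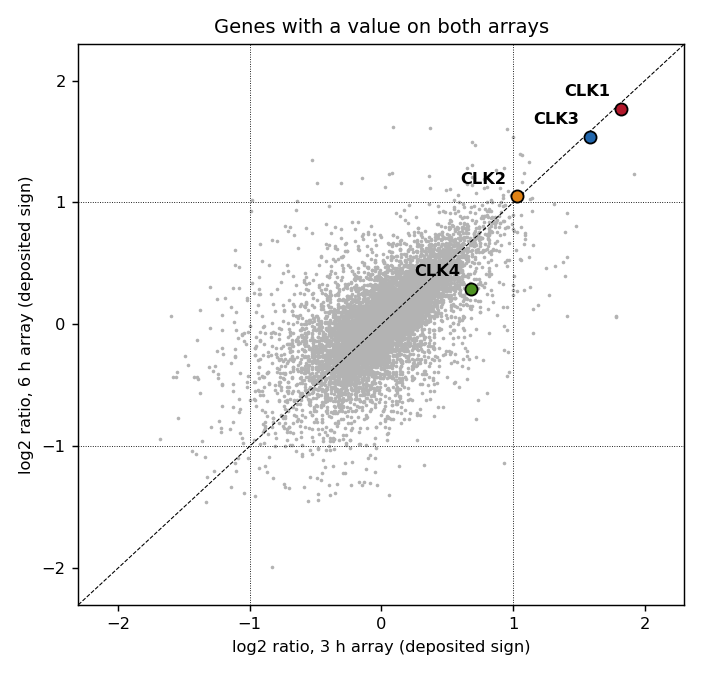
Log2 ratio on the 3 h array (horizontal) and on the 6 h array (vertical), both in the deposited sign, for 10469 named genes with both values. The dashed line marks equal values and dotted lines mark 1 log unit. CLK1 (1.82 and 1.77), CLK3 and CLK2 lie on the line at the upper right, and CLK4 (0.68 and 0.29) lies below the line within the cloud of other genes.

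The genes with values nearest to each CLK gene were found by the Euclidean distance over the 2 arrays, which is a short profile to compare. Genes with placeholder symbols, such as locus or open reading frame numbers, were left out of the nearest 5. The counts of genes within a distance include them. CLK1 and CLK3 were each other's nearest gene, at a distance of 0.33. Both led to the choice of the family by their high values, where genes are few, so this nearness describes the choice. No other gene came within 0.5 of CLK1, and 1 more did so for CLK3. Next to both came SERAC1, a protein of phosphatidylglycerol remodelling, with 1.92 and 1.23, NUF2, a kinetochore subunit, with 1.12 and 1.33, and CCAR1, a transcription coactivator, with 1.07 and 1.39. The fifth neighbour was EEA1, an endosome tether, for CLK1 with 1 and 1.54, and the zinc finger gene ZNF93 for CLK3 with 1.05 and 1.40. CLK2 lay in a denser region, with 6 genes within 0.1. Its nearest 5 were ITM2B, PSIP1, a chromatin reader also called LEDGF, SDHB, a subunit of mitochondrial complex II, SHOC2, a scaffold of RAS signalling, and KIF20B, a mitotic kinesin, with 3 h values from 0.98 to 1.07 and 6 h values from 1.01 to 1.08. CLK4 had 36 genes within 0.1, so its nearest 5 are a few of many. In order of distance they were SYT1, a synaptic vesicle calcium sensor, with 0.68 and 0.32, and PIP4P1, a phosphoinositide phosphatase, with 0.65 and 0.28. PPIG, an RS-domain cyclophilin first described as a partner of CLK, with 0.67 and 0.32, lay at the same distance as PIP4P1. The platelet chemokine PF4 and the prohormone convertase PCSK2, both with 0.64 and 0.26, came last of the 5. Every gene of this paragraph had 1 probe.

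None of the 9 lists of related genes had a member at 1 log unit or more from 0, on either array, where 1.61% of named genes at 3 h and 1.43% at 6 h did. The lists held 75 genes, of which 47 had a value at 3 h and 48 at 6 h. At 1.5-fold, 4 positive and 1 negative genes lay past the size at 3 h, where 4.88% and 4.49% of all named genes did. At 6 h it was 3 positive and 2 negative genes, against 5.63% and 4.24% of all. The genes named from the lists had 1 probe each unless stated.

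The kinases nearest to CLK by kinship are the DYRK, HIPK and PRP4 kinases of the same branch of the kinome. The PRP4 gene PRPF4B had no probe in the annotation, so the values are those of DYRK and HIPK kinases. Of 10 genes, 8 had a value at 3 h and 9 at 6 h, and their medians were 0.03 and −0.24, against 1.31 and 1.30 in the CLK family. The CLK medians hold the values that led to the choice of the family, so this gap describes the choice. At 3 h, 5 of 8 were positive, and at 6 h none of 9 was, with 7 negative and 2 at 0, whereas 51.3% and 51.5% of all named genes were positive. HIPK1 had −0.53 and −0.24, HIPK4 had −0.35 and −0.51, and DYRK1B had −0.11 and −0.28. DYRK2, named after its values were seen, was the highest of the list at 3 h with 0.25 and had −0.11 at 6 h. Of the SRPK kinases, which phosphorylate SR proteins in the cytoplasm, SRPK1 had 0.27 and 0.35 and SRPK2 had −0.05 and 0.06. No kinase of these lists reached the CLK2 value on either array, and neither did CLK4. At 6 h SRPK1 (0.35) lay above CLK4 (0.29), and the other measured kinases of these lists lay below it.

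The SR proteins, the main substrates of CLK, had a median of 0.08 on the 3 h array and −0.0075 on the 6 h array over 10 measured genes of 14, and 7 and 5 of them were positive. With each gene given by its probe farthest from 0, the medians were 0.165 and −0.015. SRSF11 had 0.46 and 0.50, SRSF1, the factor also known as ASF/SF2, had 0.42 and 0.19, and SRSF10, with 2 probes, had a mean of 0.29 and 0.22. SRSF3 lay on the other side with −0.29 and −0.48. SRSF5 was named after its values were seen, since it had 0.82 at 3 h and −0.07 at 6 h. From 3 h to 6 h, 8 of the 10 differed to the negative side, against 51.2% of all genes. SRSF5 alone of them did so by 1.5-fold or more, which 2.7% of all genes did. The others on that side differed by −0.07 to −0.23, less in size than the within-gene SD of the difference, 0.30.

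SR-related proteins of the spliceosome and of nuclear speckles had medians of 0.07 and 0 over 12 measured genes of 19, with 7 and 5 positive. PNN (pinin), a speckle and exon junction protein, had 0.88 and 0.86, and SCAF11, an SR-related factor that binds SR proteins, had 0.82 and 0.69. LUC7L2 and LUC7L, relatives of a yeast U1 snRNP subunit, had 0.52 and 0.59 and 0.41 and 0.54. SREK1, a splicing regulatory SR-related protein named after its values were seen, was the lowest of the list at 6 h, with −0.04 at 3 h and −0.61 at 6 h, and the 1 member past 1.5-fold on the negative side. PNN, SCAF11, LUC7L2 and LUC7L lay below CLK1 and CLK3, and PNN differed from CLK2 by less than 1 within-gene SD. Of the import and phosphatase list, TNPO3, the importin that carries SR proteins into the nucleus, had 0.48 and 0.28, the phosphatase subunit PPP1CC had 0.48 and 0.39, and its nuclear regulator PPP1R8 had 0.07 and 0.03. The median of this list was 0.28 at 3 h and 0.18 at 6 h over 4 measured genes of 6.

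Among 5 measured CDKs of transcription and splicing, out of 8, the medians were 0.32 and 0.26. CDK9, the kinase of P-TEFb, had 0.59 and 0.46, CDK7, of TFIIH, had 0.47 and 0.56, and CDK13 had 0.03 and 0.26. CDK11A, named after its values were seen, had 0.32 and −0.41, and its near-identical paralog CDK11B may share its probe. Outside splicing, CLK kinases phosphorylate the phosphatase PTPN1 and the coactivator PPARGC1A, and CLK2 acts on the phosphatase subunit PPP2R5B. PPARGC1A had −0.95 at 3 h and −0.67 at 6 h, the values farthest on the negative side in any of the 9 lists, while PTPN1 had 0.02 and −0.21 and PPP2R5B had −0.25 and 0.14. Of 10 nonsense-mediated decay factors, UPF1 was the 1 gene with a value, at −0.25 and −0.08. The inhibited kinases themselves had 0.14 and 0.41 for ROCK1 and 0.39 and 0.38 for ROCK2.

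**Figure D4:**
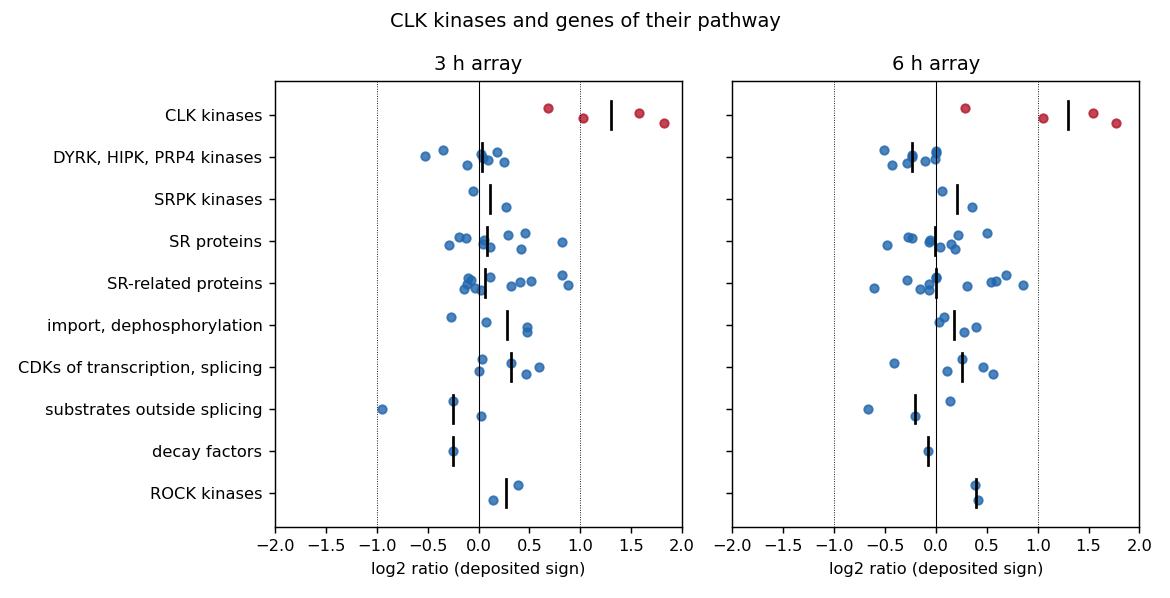
Log2 ratio, in the deposited sign, of the CLK genes and of the members of the 9 lists on the 3 h array (left) and the 6 h array (right). Each point is a gene, vertical bars are medians and dotted lines mark 1 log unit. CLK1, CLK2 and CLK3 are the points past the dotted line at both times, and no member of the other lists is.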

How the data were processed

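Dual-colour oligonucleotide arrays compared RNA of Y27632 and untreated 293T cells, 1 array each at 3 h and 6 h. The authors deposited 1 value per probe and array, taken to be a log2 ratio between the channels, with 2 decimals and a median of 0 over all probes. How these log2 values were made before they were deposited (background correction, normalization, spot filter, base and numerator) is not stated by the labels, and spot intensities were not used here, so precision is limited by the number of arrays. Of 24267 probes, 13395 had 1 gene symbol in the platform annotation, none had several and 10872 had none. Symbols were kept where current in RefSeq GRCh38.p14 (10822), updated through a unique synonym (2446) or left unchanged (127). Probes of a gene were averaged (10810 genes at 3 h, 10716 at 6 h, 10469 on both). Genes were counted at 1 log unit and at 1.5-fold. The within-gene SD pooled probes of genes with 2 or more probes. The rule for named genes took all CLK genes, any list member at 1 log unit, up to 4 members per list with one sign on both arrays, and 5 nearest genes per CLK gene. Placeholder symbols were left out of the nearest genes. Members and lists were chosen with earlier results of these data known, and the motifs after the promoter sequences were seen. Alternatives were the centring, common quantiles, the probe farthest from 0, listed symbols, natural logarithms and the 1.5-fold size. The formula of the within-gene SD and the number of genes left by the averaging were checked on simulated data. The motif search was checked on 1 fixed short sequence. Python 3.11.15, pandas 2.3.3, numpy 2.4.6 and matplotlib 3.10.9 were used.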

Additional observations from a re-analysis of the deposited data

Results flagged for a closer look

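Within the lists, 2 genes had values of opposite sign on the arrays with a difference of at least 1.5-fold. That is 4.26% of the 47 list genes with both values, close to the 3.74% of all 10469 genes (392) that met the same condition. SRSF5, an SR protein, had 0.82 on the 3 h array and −0.07 on the 6 h array, so that 6 h minus 3 h gave −0.89. CDK11A, a kinase of transcription and splicing, had 0.32 and −0.41, a difference of −0.73. The difference was not tested for either gene, for want of replicates, and the 6 h value of SRSF5 lay near 0.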

How the results depend on the processing

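With natural logarithms in place of base 2, the folds of CLK1 became 6.17 at 3 h and 5.87 at 6 h, those of CLK3 4.85 and 4.66 and those of CLK2 2.80 and 2.86, and those of CLK4 1.97 and 1.34. At 1.5-fold in place of 1 log unit, 5 list genes at 3 h and 5 at 6 h lay past the size, against 0 and 0, by construction of the smaller size. Putting both arrays on common quantiles shifted the 12 CLK log ratios and differences by −0.10 to 0.09, and centring on named probes by −0.01 to 0, both below the within-gene SD. The probe farthest from 0 and the symbols as listed changed no CLK value, since each gene has 1 probe and its symbol is current. List medians moved by −0.01 under centring and by −0.0075 to 0.09 with the probe farthest from 0. No paired analysis was possible because each time has 1 array. Without spot intensities, whether a CLK spot was bright or dim is not told by the values.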
